A study of Arabidopsis thaliana with 12 samples.

Results

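Cell walls limit how far a plant cell can expand, and the genes described here make proteins that loosen, cut, rejoin, acetylate or build wall polysaccharides. Members were the array probe sets whose single annotated symbol starts with EXPA, EXPB, EXLA, EXLB or EXP and a digit (expansins), XTH, GH9, TBL, CSL or CESA. The rule found 71 probe sets for 71 distinct loci among 22746 probe sets other than controls. They comprised 18 expansins, 9 XTH, 15 GH9, 22 TBL and 7 CSL genes. No CESA gene, the family of cellulose synthase subunits, was named.

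The Affymetrix ATH1 array had been used to measure expression in tips of inflorescences of Arabidopsis thaliana. All plants were homozygous for ap1-1 and cal-1 and expressed 35S:AGGR, a fusion of AGAMOUS to the rat glucocorticoid receptor. AGAMOUS is a MADS-domain protein of stamen and carpel identity, and the receptor part makes the fusion dependent on steroid. The 35S promoter is broadly active, so the fusion was not limited to the cells that normally make AGAMOUS. The steroid groups received dexamethasone at 10 µM on the tips, and the mock groups the same ethanol and wetting agent without it. Plants grew at 18 °C with 16 hours of light, and per the labels the RNA was kept in store until activation of the fusion had been seen. RNA was taken 1, 3 or 7 days later, and each of the 6 groups had 2 samples described as independent, with 1 array each. No plants without the fusion were treated, so a response to the steroid and a response to AGAMOUS cannot be told apart. No probe set carried the name AGAMOUS, and the treatment was not checked here through that gene.

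Expansins loosen walls without cutting polysaccharides, and comprise alpha expansins (EXPA), beta expansins (EXPB) and expansin-like proteins (EXLA, EXLB). XTH enzymes, the xyloglucan endotransglucosylase/hydrolases, cut xyloglucan and rejoin it or hydrolyse it. GH9 enzymes are beta-glucan-cutting endoglucanases, of which class A is anchored in membranes, class B is secreted, and class C is secreted with a carbohydrate-binding module. TBL proteins, named after trichome birefringence, include enzymes that put acetyl groups on xylan, mannan, xyloglucan or pectin. Among CSL (cellulose synthase-like) proteins, CSLA makes mannan and CSLC the glucan backbone of xyloglucan. Growing stamens and carpels, like other expanding organs, use such proteins to let their cells enlarge.

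Each array was multiplied to a common median signal of 24.8, and values below are these scaled signals in arbitrary units. Of the 71 members, 50 passed a filter that asked for a signal above the array's own 40th percentile on at least 2 of the 12 arrays. That percentile lay between 12.5 and 17.2. The other 21 were not tested, 14 with no array above the percentile and 7 with 1, and they comprised 6 expansins, 5 XTH, 4 GH9, 5 TBL and 1 CSL gene. They included EXPA8, EXPA16, XTH18, XTH19 and GH9C1, and their highest value on any array was 27.4, of EXPA24. Of those tested, 19 exceeded the percentile on every array, whereas GH9B12 passed through day 1 arrays alone, TBL30 through mock arrays alone, and GH9B5 and GH9C3 through steroid arrays alone. The probe set of TBL32 is of a type that can also detect related transcripts.

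The days differed in array quality. Deposited array medians ran from 16.1 to 20.8 on day 1, from 20.1 to 32.2 on day 3 and from 62.6 to 95.2 on day 7. GAPDH signal at the 3' end exceeded that at the 5' end by factors of 4.16 to 11.2, 6.60 to 15.8 and 1.09 to 1.41. Such a gap widens as RNA or cRNA quality falls. For ubiquitin the factors were 4.93 to 6.79, 3.77 to 6.07 and 1.61 to 1.86, again lowest on day 7. For actin they were 3.996 to 8.98, 3.45 to 8.66 and 4.37 to 6.42. The actin ranges overlapped, so that control did not set day 7 apart. Residuals of log2 signal had a median SD of 0.335, 0.321 and 0.132. Arrays were therefore weighted by day in the fit. Both mock arrays of day 7 carried 1 scan date and both steroid arrays another, and no other array shared these dates. On day 7 scan date and treatment cannot be told apart, and neither can day 7 and its scan dates in comparisons with earlier days. Of the fixed markers of meristem and young flower, 3 of 10 were named, among which PUCHI exceeded the 40th percentile on 11 arrays, CLV3 on 7 and UFO on 1.

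**Figure D1:**
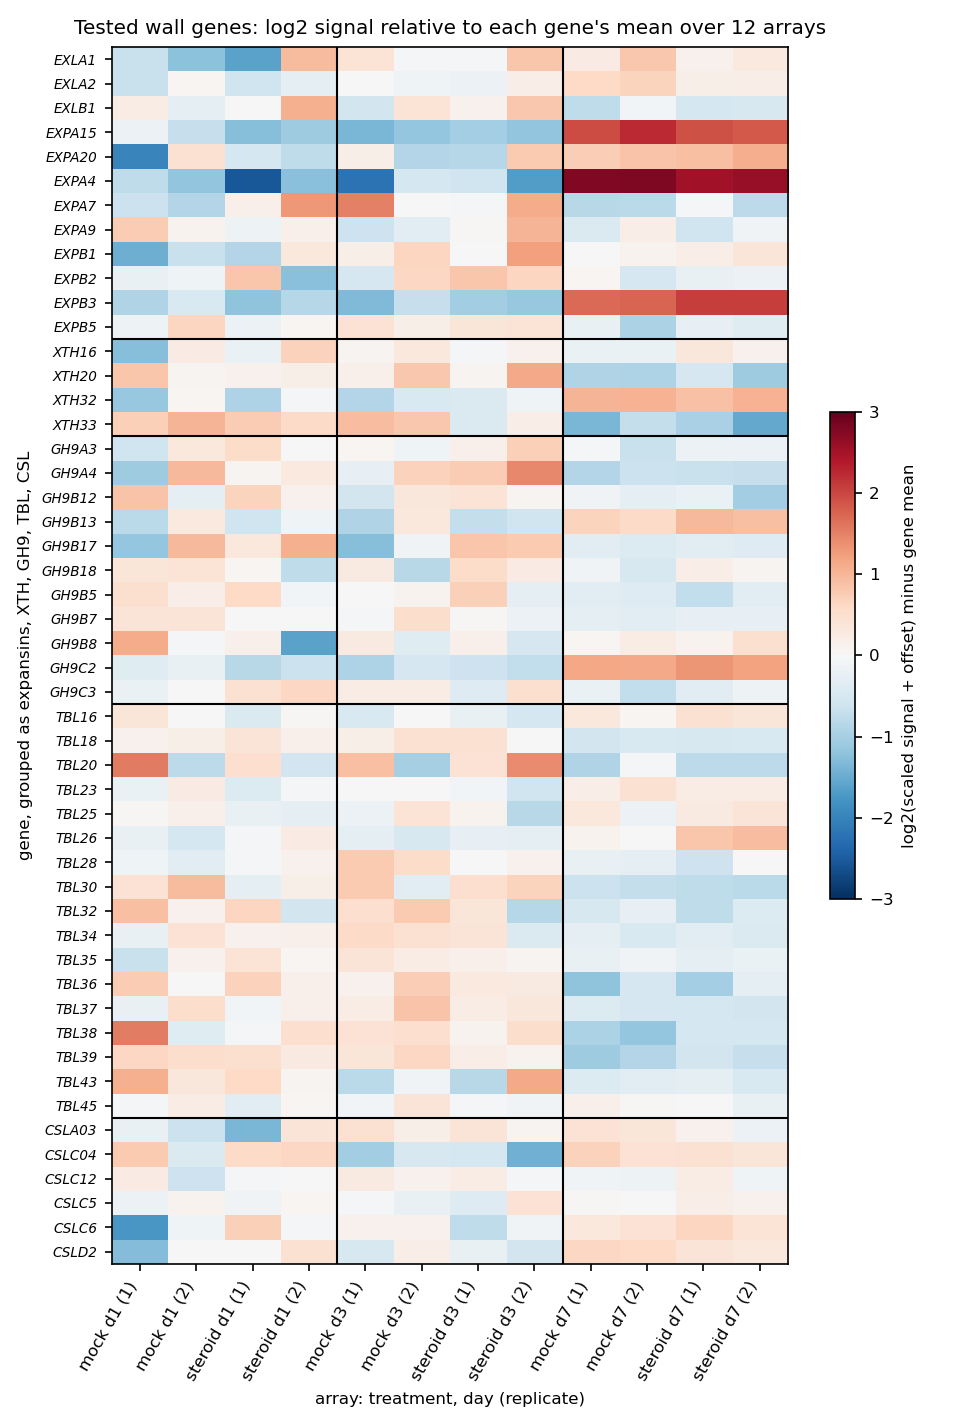
Each row is 1 of the 50 tested wall genes and each column 1 array, with colour giving log2(scaled signal + offset) minus the mean of that gene over 12 arrays. EXPA4, EXPA15, EXPB3 and GH9C2 are high on all 4 day 7 arrays, and several TBL genes are lower there after scaling. For the TBL genes called lower than on day 1 that direction turns when the deposited values are left unscaled.

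The steroid comparison asked whether wall genes changed when the fusion was activated. On day 7 the transcript of TBL26 (AT4G01080), a mannan acetyltransferase of Arabidopsis, was higher in steroid tips. Its scaled signal was 60.2 and 56.2 in mock tips and 103 and 109 in steroid tips, so the groups did not overlap. The difference was 1.77-fold (log2 0.82, SE 0.12, 95% interval 0.57 to 1.07, limma adjusted p = 0.000833). The mock and steroid arrays of day 7 differed in scan date, and the SE and p-value do not measure a shift between those dates. On day 1 the mock arrays read 47.0 and 37.4 and the steroid arrays 53.9 and 66.6, again without overlap, but the difference did not pass the test (log2 0.47, SE 0.29, adjusted p = 0.999). On day 3 the values were 45.0 and 39.2 against 46.3 and 44.9, which overlap (log2 0.11, SE 0.28). The steroid difference on day 7 exceeded that on day 1 by log2 0.35 (95% interval -0.32 to 1.02) and that on day 3 by 0.71 (0.07 to 1.36), and neither passed the test (adjusted p = 0.970 and 0.995). TBL26 was called on day 7 under 24 of 26 alternative settings. The call was lost with equal array weights (adjusted p = 0.9999), where the spread of days 1 and 3 enters the error of day 7, and with deposited values left unscaled (log2 0.56, adjusted p = 0.578). On the same 4 arrays the summed signal of the 3 named meristem and young flower markers was 40.1 to 48.9 in mock and 30.7 to 31.3 in steroid tips, and that of 4 carpel, style and ovule markers 468 to 492 and 530 to 629. The sum of 2 leaf markers was 943 to 948 and 853 to 942. The members of a sum did not all go 1 way. CLV3 was higher in steroid tips (log2 0.35, limma adjusted p = 0.498), but PUCHI was lower (log2 -0.46, adjusted p = 0.164). UFO, which was not tested, read 10.9 and 17.4 in mock and 2.02 and 5.49 in steroid tips. It exceeded the 40th percentile on 1 of 12 arrays, so part of the lower meristem sum rests on a weak signal. Of the tested carpel markers SPT and ALC were higher (log2 0.20 and 0.26) and INO lower (log2 -0.14). None of the tested markers was called for steroid on day 7. The part of these differences in the TBL26 difference was not tested.

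TBL26 was the single member called for steroid among 50 on day 7, that is 2%, where 1.76% of all 16511 tested probe sets were called, 1.01% higher and 0.745% lower (167 and 123, or 33 and 60 with unscaled values). On day 1 limma called 0 of 50 members, where it called 0% of all probe sets. It gave 4 members an unadjusted p under 0.05, beside 4.23% of all. On day 3 it called 0 members against 0.0182% of all, with 0 at an unadjusted p under 0.05 beside 3.03% of all. For the mean of the 3 daily differences it called 0 members, against 0.0787% of all, 0.0666% higher and 0.0121% lower. There 1 member had an unadjusted p under 0.05, beside 5.91% of all. None of the 3 differences between daily effects was called for any member. Over all probe sets limma called 0.0182% for day 7 minus day 1, and 0% for day 7 minus day 3 and day 3 minus day 1. In that order 4, 2 and 2 members had an unadjusted p under 0.05, beside 5.88%, 4.32% and 2.73% of all. The median steroid difference over the tested members was log2 -0.07 on day 1, -0.09 on day 3 and 0.03 on day 7, beside -0.03, -0.12 and 0.00 over all probe sets (0.000861 on day 7).

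**Figure D2:**
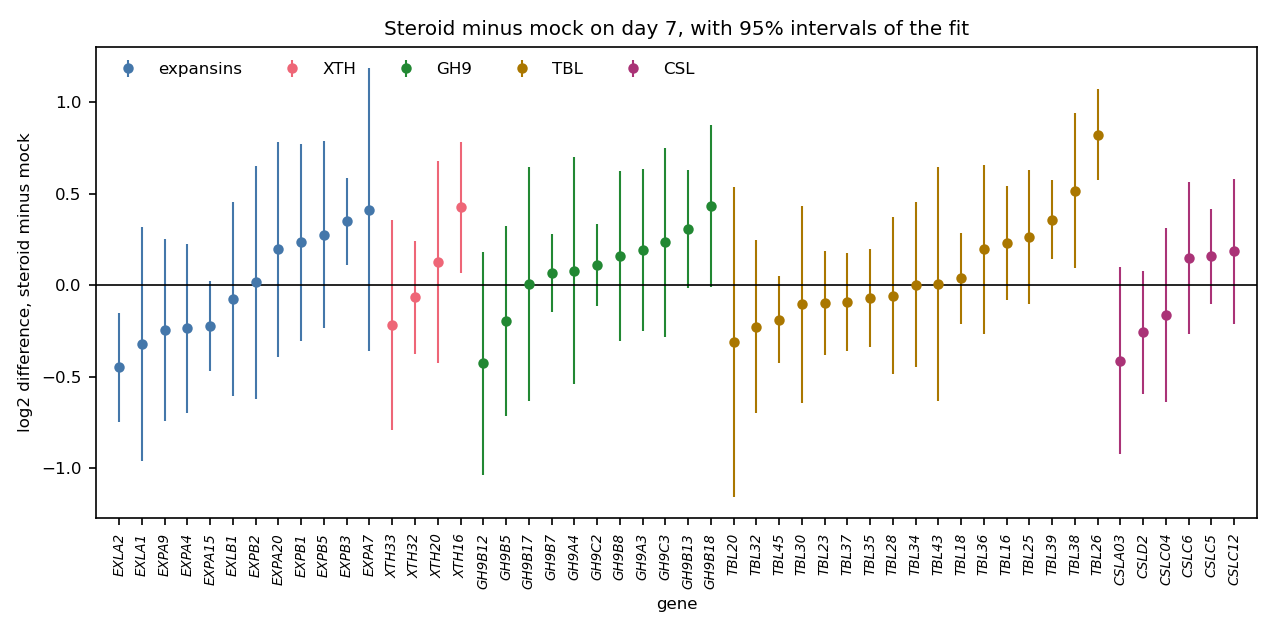
Points give the log2 difference of steroid minus mock on day 7 for the 50 tested wall genes, grouped and coloured by family, and bars the 95% interval of the limma fit. TBL26 stands highest at 0.82, and the other 49 lie between -0.45 for EXLA2 and 0.52 for TBL38.

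On day 7, when replicates were closest, other members lay in smaller and uncalled distances. EXLA2, an expansin-like gene, read 59.1 and 62.9 in mock tips and 43.0 and 44.0 in steroid tips (log2 -0.45, SE 0.14, adjusted p = 0.138). EXPB3 read 391 and 403 against 511 and 504 (log2 0.35, SE 0.11, adjusted p = 0.146). In both genes the 2 groups did not overlap, but neither difference passed the test over all probe sets. TBL39 read 94.9 and 108 against 138 and 124 (log2 0.36, SE 0.10, adjusted p = 0.0976), and it was called when arrays were quantile-normalized or centred on the tested probe sets, where the member count became 2. XTH16 read 47.7 and 47.9 against 70.6 and 61.0 (log2 0.42, SE 0.17, adjusted p = 0.254). TBL38, a TBL gene with mock values of 13.2 and 10.9, read 19.0 on both steroid arrays (log2 0.52, adjusted p = 0.240). With TBL26 these made 6 members at an unadjusted p under 0.05, or 12%, where 13.8% of all probe sets were.

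Mock and steroid arrays of a day did not overlap for 14 members on day 1, 14 on day 3 and 22 on day 7, where 31.2%, 30.5% and 44.7% of all probe sets did not overlap. On day 1, 6 of these members were higher and 8 lower in steroid tips, beside 14.1% and 17.1% of all. On day 3, 6 were higher and 8 lower, beside 10.5% and 20% of all, and on day 7, 14 and 8, beside 22.4% and 22.3%. These counts include GH9C3, higher on day 1, which had passed the filter through steroid arrays alone. They also include TBL30, lower on days 1 and 7, which had passed through mock arrays alone. No member kept 1 direction without overlap on all 3 days, beside 1.59% of all. Of the 50, 5 did so on at least 2 days and never in the opposite direction, beside 14.8% of all. These were EXPA4, EXPA15 and TBL30, lower in steroid tips, and EXPA7 and TBL26, higher, of which TBL30 had passed the filter through mock arrays alone. A further 7 members separated in opposite directions on different days, beside 13.9% of all: GH9B7, GH9B18, GH9C2, TBL28, TBL39, CSLC6 and CSLD2. The remaining patterns included 13 members that overlapped on every day, beside 26.9% of all.

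Some of the larger steroid differences before day 7 belonged to low or scattered signals. CSLC6, of the xyloglucan backbone family, read 5.70 and 26.6 in mock and 51.2 and 29.0 in steroid tips on day 1 (log2 1.29, 95% interval 0.25 to 2.32), but 32.7 and 32.8 against 15.7 and 27.4 on day 3 (log2 -0.56, 95% interval -1.55 to 0.43). The separation thus ran in opposite directions on these days. GH9B8 read 71.3 and 29.3 against 34.6 and 7.26 on day 1, and 32.3 and 36.6 against 33.7 and 45.0 on day 7, with overlap on both days. GH9B17 read 0.863 and 7.27 in mock and 18.0 and 17.4 in steroid tips on day 3, but 5.76 and 5.05 against 5.63 and 5.25 on day 7. Its day 3 difference, log2 1.50 with a 95% interval of -0.03 to 3.03, did not pass the test. EXPA7, a root hair expansin, read 1.54 and 0.715 against 5.90 and 18.5 on day 1, and was above the 40th percentile on 2 of the 12 arrays.

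Steroid differences were also described by family. Expansins had a median of log2 -0.09 on day 1, 0.20 on day 3 and -0.03 on day 7, with 10 of 12 above 0 on day 3 and 0 of them called. TBL genes had -0.24, -0.20 and 0.00 (0.00345 on day 7), with 4 of 17 above 0 on day 3, beside 36.9% of all probe sets. GH9 genes had -0.07, 0.18 and 0.11, XTH genes -0.07, -0.02 and 0.03, and CSL genes 0.29, -0.17 and -0.01. When scan date entered the fit as a term, the day 1 difference rested on mock replicate 2 against both steroid arrays, which share a date, and it was log2 0.62 for TBL26. The lone mock array is there assumed to vary like the other groups, and this fit says little about members that were not called.

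The comparison between days asked how wall genes changed as the tips aged, in mock and in steroid tips separately. Age cannot be told apart here from the scan dates, array medians and GAPDH and ubiquitin factors that set day 7 apart. The mock and steroid comparisons share no array. From day 1 to day 7, 7 members rose in both: the alpha expansins EXPA4, EXPA15 and EXPA20, the beta expansin EXPB3, the xyloglucan enzyme gene XTH32, and the endoglucanase genes GH9C2 and GH9B13. Signals after scaling are relative to each array's median, so a rise or fall here is relative to the other transcripts on the array. In mock tips limma called 18 of 50 members, 10 higher and 8 lower, where 30.9% of all probe sets were called, 16% higher and 14.8% lower. In steroid tips it called 11, of which 8 were higher and 3 lower, where 30.4% were called, 16.8% higher and 13.6% lower. With the deposited values left unscaled, which moved the median of all tested probe sets by log2 2.01 in mock and 1.71 in steroid tips, the counts were 41 higher and 0 lower in mock and 38 higher and 0 lower in steroid tips, and over all probe sets 14840 higher and 18 lower, and 14017 and 22. The mock count was 7 without mock replicate 1 of day 1, and the steroid count was 6 and 7 without steroid replicate 1 and 2 of day 1. That mock array alone carried its scan date, and its deposited median of 16.1 was the lowest of all arrays.

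The 3 largest rises in each treatment were those of expansins. EXPA4 (AT2G39700) read 16.9 and 11.6 in mock and 1.88 and 10.9 in steroid tips on day 1, and 3.45 and 21.0 in mock and 19.7 and 7.03 in steroid tips on day 3. On day 7 it read 246 and 249.8 in mock and 204 and 216 in steroid tips, above every earlier array. The rise from day 1 was 13.7-fold in mock (log2 3.78, SE 0.42, limma adjusted p = 6.91e-06) and 22.0-fold in steroid tips (log2 4.46, SE 0.42, adjusted p = 1.16e-06). On days 1 and 3 it exceeded the 40th percentile on 3 of 8 arrays, so these folds depend on the offset added before taking log2, and over the alternatives the mock value ran from log2 3.49 to 5.94. The steroid value was log2 3.81 without steroid replicate 1 of day 1, 5.10 without replicate 2 of that day and 6.19 in unscaled values.

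EXPA15 (AT2G03090) read 83.3 and 57.4 in mock and 36.9 and 43.0 in steroid tips on day 1, and between 34.1 and 44.4 on day 3. On day 7 it read 385 and 464 in mock and 369 and 354 in steroid tips, rises of 5.80-fold (log2 2.54, SE 0.22, adjusted p = 7.93e-07) and 8.28-fold (log2 3.05, SE 0.22, adjusted p = 7.82e-08). EXPB3 (AT4G28250) read between 44.4 and 83.5 on the 8 arrays of days 1 and 3 and between 391 and 511 on day 7. Its rise was 5.31-fold in mock (log2 2.41, SE 0.21, adjusted p = 8.72e-07) and 8.62-fold in steroid tips (log2 3.11, SE 0.21, adjusted p = 4.26e-08). The calls of these 3 expansins in both comparisons were kept under all 26 alternatives.

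EXPA20, another alpha expansin, rose in both comparisons as well, by log2 1.56 (adjusted p = 0.0337) in mock and 1.63 (adjusted p = 0.0268) in steroid tips. It read 1.54 and 27.4 in mock tips on day 1 and 34.6 and 37.4 on day 7, and its mock value was log2 0.34 (adjusted p = 0.708) without mock replicate 1 of day 1, one of 8 alternatives that ended that call, while 6 ended the steroid call. Those without mock replicate 1 and replicate 2 of day 7 gave adjusted p = 0.0566 and 0.0742. The steroid call ended without either steroid array of day 1 (adjusted p = 0.130 and 0.172) and without steroid replicate 2 of day 7 (0.0678). EXLA2 rose in mock tips from 22.0 and 39.7 to 59.1 and 62.9 (log2 0.94, SE 0.27, adjusted p = 0.0146), not without mock replicate 1 of day 1 (log2 0.57, adjusted p = 0.269). In steroid tips EXLA2 read 23.6 and 29.9 on day 1 and 43.0 and 44.0 on day 7 (log2 0.63, adjusted p = 0.0870). Thus 5 of 12 tested expansins were called higher and 0 lower in mock tips, or 41.7% higher where 16% of all probe sets were, and 4 and 0 in steroid tips, or 33.3% where 16.8% were, with medians of log2 1.03 and 0.55 beside -0.10 and -0.08 over all probe sets. Without mock replicate 1 of day 1 the mock count was 3. The other 7 in mock tips lay between log2 -0.84 and 1.48 and did not pass the test, among them EXPB1, which read 1.39 and 5.60 on day 1 and 11.5 and 12.7 on day 7 (log2 1.12, adjusted p = 0.0879).

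**Figure D3:**
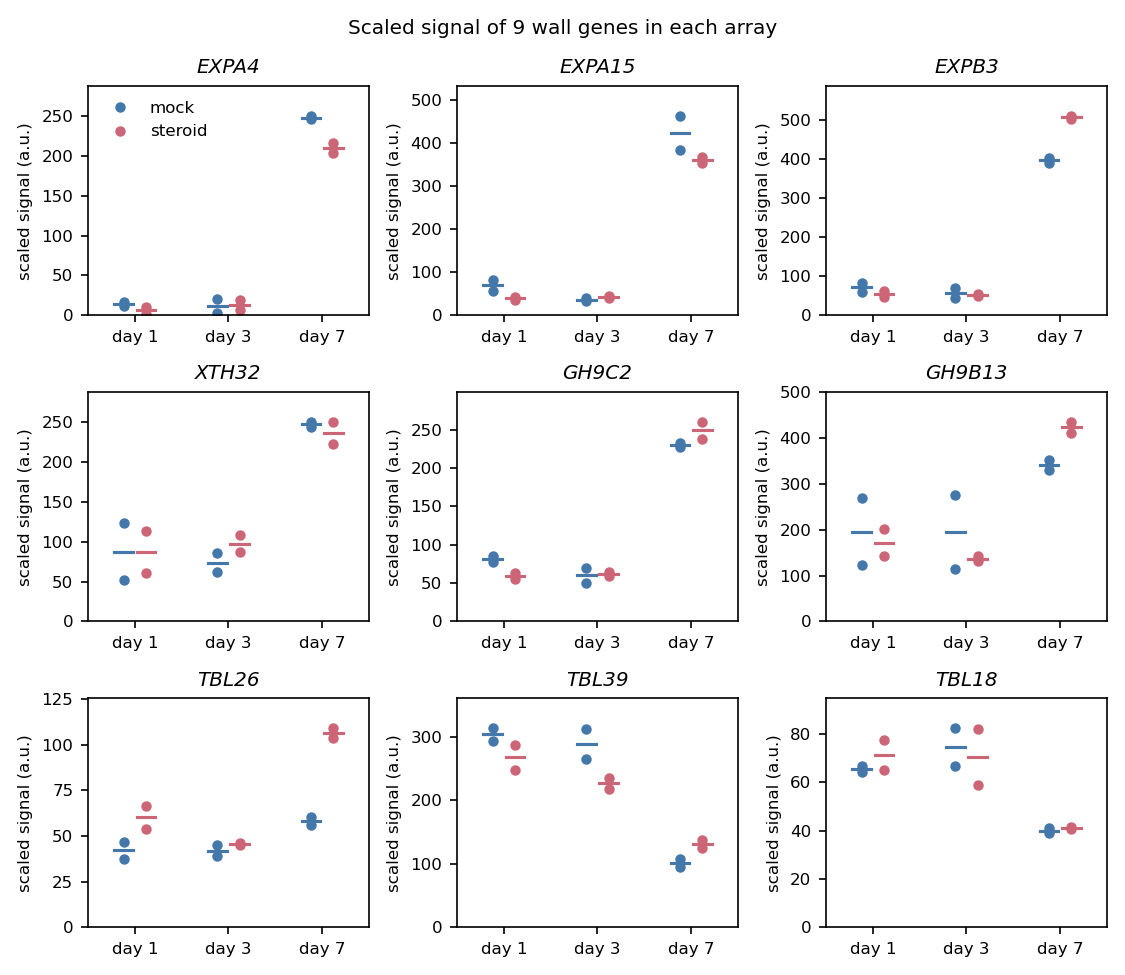
Each panel shows 1 wall gene, with the scaled signal (arbitrary units, linear axis from 0) on every array as a point, by day and treatment, and the mean of each pair as a bar. The first 6 panels show genes higher on day 7, TBL26 shows the steroid difference on day 7, and TBL39 and TBL18 are lower on day 7, a direction that turns when the deposited values are left unscaled.

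Among enzymes that act on xyloglucan, XTH32 rose and XTH33 fell. XTH32, of the sequence group that holds the hydrolases of the family, read 51.8 and 124 in mock and 60.2 and 113 in steroid tips on day 1. On day 7 it read 245 and 250.4 in mock and 223 and 250.3 in steroid tips, all above the 8 earlier arrays. The rise was 2.97-fold in mock (log2 1.57, SE 0.28, adjusted p = 0.000508) and 2.76-fold in steroid tips (log2 1.47, SE 0.28, adjusted p = 0.000822), and the latter was lost without steroid replicate 1 of day 1 (adjusted p = 0.0716). XTH33 fell from 20.02 and 25.5 to 1.37 and 4.69 in mock tips (log2 -1.91, SE 0.52, adjusted p = 0.0106) and from 20.9 and 17.8 to 3.21 and 0.730 in steroid tips (log2 -1.93, SE 0.52, adjusted p = 0.00953), still below 0 in unscaled values at log2 -0.57 and -1.03 but no longer called. The size of its fall depends on the offset. Its mock call was lost without mock replicate 1 or 2 of day 1 (adjusted p = 0.0605 and 0.103), and its steroid call without steroid replicate 1 or 2 of day 1 (0.125 and 0.0794). XTH20 fell in mock tips from 21.9 and 11.3 to 3.54 and 3.49 (log2 -1.37, adjusted p = 0.0458), a call kept under 10 of 25 alternatives and turned to log2 0.0923 in unscaled values. XTH33, XTH20 and the TBL gene TBL30 were under the 40th percentile on every day 7 array and had passed the filter through the earlier days alone, as had 14 of the 50 tested members, so that a lower day 7 value was built into their selection. They make up 3 of the 8 lower calls in mock tips and, with XTH33, 1 of the 3 in steroid tips. In steroid tips XTH20 read 11.9 and 12.4 on day 1 and 6.02 and 2.74 on day 7 (log2 -0.95, adjusted p = 0.160). XTH16 read 20.02 and 66.2 on the mock arrays of day 1 and 47.7 and 47.9 on those of day 7, with no difference past the test (log2 0.33, 95% interval -0.35 to 1.01).

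Of the GH9 endoglucanases, GH9C2 and GH9B13 rose in both comparisons. GH9C2 (AT1G64390) read 77.9 and 85.8 in mock and 55.0 and 62.9 in steroid tips on day 1, and 232 and 228 in mock and 260.3 and 239 in steroid tips on day 7. Its rise was 2.72-fold in mock (log2 1.44, SE 0.20, adjusted p = 6.70e-05) and 4.01-fold in steroid tips (log2 2.01, SE 0.20, adjusted p = 2.27e-06), called under all 26 alternatives in each. GH9B13, a secreted class B enzyme, read 123 and 268 in mock and 143 and 201 in steroid tips on day 1, and 351 and 330.1 in mock and 435 and 411 in steroid tips on day 7. Its rise was 1.85-fold in mock (log2 0.89, SE 0.29, adjusted p = 0.0290) and 2.46-fold in steroid tips (log2 1.30, SE 0.29, adjusted p = 0.00293). The mock call was lost without mock replicate 1 of day 1 (log2 0.34, adjusted p = 0.534) or mock replicate 1 of day 7 (adjusted p = 0.0638), and the steroid call without steroid replicate 1 of day 1 (adjusted p = 0.0985). GH9B7 fell in mock tips, from 274 and 275 to 168 and 165.1 (log2 -0.71, SE 0.19, adjusted p = 0.0108), but turned to log2 1.55 in unscaled values, and the call was lost without either mock array of day 1 (adjusted p = 0.0767 and 0.0768). In steroid tips GH9B7 read 210.5 and 207 on day 1 and 173 and 175 on day 7 (log2 -0.25, adjusted p = 0.333). Class A members GH9A3 and GH9A4 did not pass the test from day 1 to day 7 in either treatment.

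Of 17 TBL genes, 5 were called lower and 0 higher in mock tips after scaling, or 29.4% lower where 14.8% of all probe sets were. In steroid tips 2 were called lower and 1 higher, or 11.8% lower where 13.6% of all were. None was called lower when the deposited values were left unscaled. TBL39 read 314 and 294 in mock and 288 and 247 in steroid tips on day 1, and 94.9 and 108 in mock and 138 and 124 in steroid tips on day 7. It fell by 2.92-fold in mock (log2 -1.55, SE 0.20, adjusted p = 2.51e-05) and by 2.00-fold in steroid tips (log2 -1.003, SE 0.20, adjusted p = 0.00101), whereas unscaled values gave log2 0.70 and 0.93, which are 1.31 and 0.79 below the median of all tested probe sets (-1.31 and -0.79). TBL18 read between 59.0 and 82.5 on the 8 earlier arrays and between 38.9 and 41.7 on day 7, called lower in mock (log2 -0.65, adjusted p = 0.0363) and steroid tips (log2 -0.73, adjusted p = 0.0210), but at log2 1.50 and 1.11 unscaled. Its mock call was lost without mock replicate 1 or 2 of day 1 or mock replicate 1 of day 7 (adjusted p = 0.148, 0.172 and 0.0673), and its steroid call without steroid replicate 1 or 2 of day 1 (0.238 and 0.0894).

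TBL38, a family member that in Arabidopsis seed coat removes acetyl groups from pectin, read 93.3 and 21.7 in mock tips on day 1 and 13.2 and 10.9 on day 7 (log2 -1.63, adjusted p = 0.00423), a fall that was lost without mock replicate 1 of day 1 (log2 -0.67, adjusted p = 0.278) and turned to log2 0.32 unscaled. TBL36 read 95.04 and 54.1 on day 1 and 21.0 and 37.0 on day 7 (log2 -1.23, adjusted p = 0.0329), at log2 0.88 unscaled, with the call lost without mock replicate 1 or 2 of day 1 (adjusted p = 0.314 and 0.0550) or mock replicate 1 of day 7 (0.0940). TBL30 fell from 13.4 and 21.2 to 4.18 and 3.70 in mock tips (log2 -1.36, adjusted p = 0.0428), under the 40th percentile on day 7, a call kept under 12 of 25 alternatives and at log2 0.13 unscaled. The mock count of lower TBL genes was 2 without mock replicate 1 or 2 of day 1 or mock replicate 1 of day 7, and the steroid count was 1 without steroid replicate 1 or 2 of day 1. TBL26 rose in steroid tips, by 1.72-fold (log2 0.78, SE 0.22, adjusted p = 0.0140), and was not called in mock tips (log2 0.43, 95% interval -0.04 to 0.91). This comparison shares its steroid arrays of day 7 with the treatment comparison above, and the call was lost without steroid replicate 1 or 2 of day 1 (adjusted p = 0.209 and 0.0629). TBL32, which acetylates xylan in Arabidopsis, read 39.6 and 21.3 in mock tips on day 1 and 12.6 and 15.7 on day 7, a difference that did not pass the test (log2 -0.87, adjusted p = 0.133).

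Among the polysaccharide synthases, CSLC6 and CSLD2 rose in mock tips. CSLC6 went from 5.70 and 26.6 to 38.3 and 41.5 (log2 1.33, SE 0.37, adjusted p = 0.0131) and CSLD2, needed for normal root hairs in Arabidopsis, from 16.5 and 46.1 to 74.0 and 73.3 (log2 1.27, SE 0.30, adjusted p = 0.00480). Both calls rested on mock replicate 1 of day 1, without which they gave log2 0.52 and 0.63 (adjusted p = 0.410 and 0.223). In steroid tips limma called 0 of 6 CSL genes from day 1 to day 7, beside 30.4% of all probe sets. At an unadjusted p under 0.05 there were 0, beside 41.7% of all, and CSLC6 and CSLD2 had log2 0.19 and 0.12. CSLA03, a mannan synthase family gene, read 10.6 and 6.80 in mock tips on day 1 and 19.2 and 18.1 on day 7 (log2 0.83, adjusted p = 0.180). CSLC5 read between 55.6 and 101 on days 1 and 3 and between 72.5 and 85.4 on day 7, with no difference past the test in any comparison.

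Of the 18 members called in mock tips, 10 were also called in steroid tips, which is 55.6% of the mock calls and 90.9% of the 11 steroid calls. Over all tested probe sets 3449 were called in both, which is 67.7% of the mock calls and 68.7% of the steroid calls. The 10 were EXPA4, EXPA15, EXPA20, EXPB3, XTH32, XTH33, GH9B13, GH9C2, TBL18 and TBL39. Across the 50 tested members, which are not independent replicates, the mock and steroid changes had 1 sign in 41, or 82%, with Pearson's r 0.883 and Spearman's rho 0.798. Over all tested probe sets the share was 81.9%, with r 0.813 and rho 0.786. The mock and steroid changes span the same days. Their day 7 arrays carried different scan dates, but mock replicate 2 and both steroid arrays of day 1 shared a date. In each change day 7 cannot be told apart from its scan date. Nor can it be told apart from its higher array medians and lower GAPDH and ubiquitin factors, which both changes share. The steroid differences on day 7 of 4 genes that rose in both treatments did not pass the test, with log2 -0.23 for EXPA4 (95% interval -0.70 to 0.23), -0.22 for EXPA15 (-0.47 to 0.02), 0.35 for EXPB3 (0.11 to 0.59) and 0.11 for GH9C2 (-0.11 to 0.34).

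**Figure D4:**
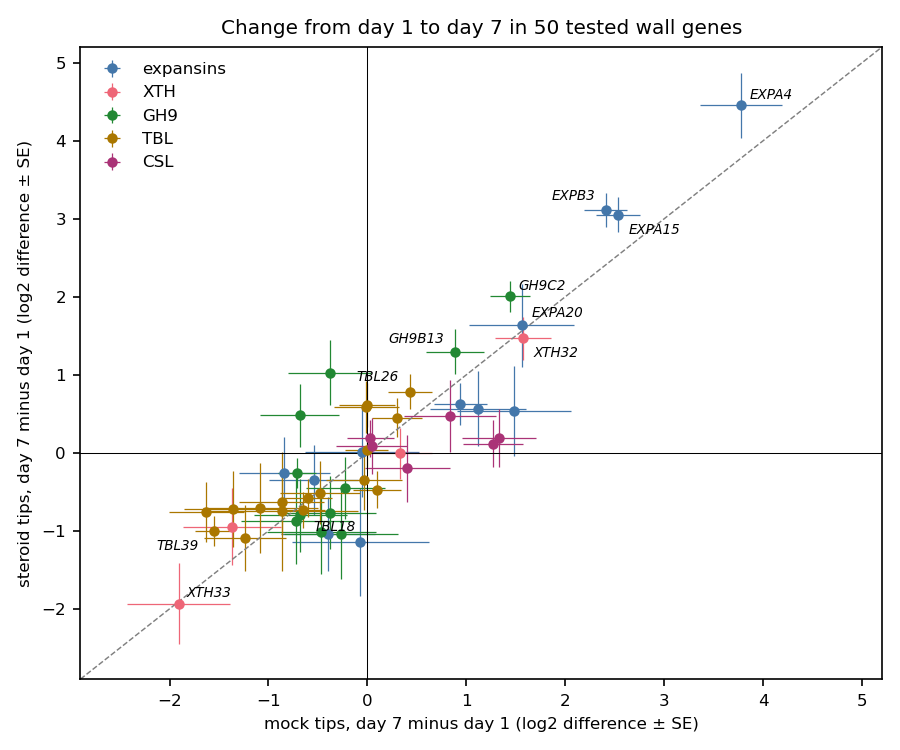
Each point is 1 of the 50 tested wall genes, with its log2 change from day 1 to day 7 in mock tips on the x axis and in steroid tips on the y axis, bars giving 1 SE and colour the family. The 10 genes called in both, and TBL26, are named; the dashed line marks equal change. Falls shown here turn to rises in unscaled values for all called members but XTH33.

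A comparison of day 7 with day 3, added after the data were seen, gave counts in the same range. In mock tips limma called 16 members, 8 higher and 8 lower, where 34.6% of all probe sets were called, and in steroid tips 15, of which 9 were higher and 6 lower, where 32.7% were called. Unscaled values gave 28 higher and 0 lower in mock and 22 higher and 0 lower in steroid tips. The mock count was 7 without either mock array of day 3. Of the lower calls, XTH20 and XTH33 in mock tips had passed the filter through days 1 and 3 alone. So had TBL30, XTH20 and GH9A4 in steroid tips, so that a lower day 7 value was built into the selection of these genes. CSLC04, called higher in both treatments, was under the 40th percentile on every day 3 array. Called in all 4 comparisons of day 7 with an earlier day were EXPA4, EXPA15, EXPB3, XTH32, GH9B13 and GH9C2, higher, and TBL18 and TBL39, lower after scaling and higher unscaled. These 4 comparisons share the day 7 arrays by treatment. From day 1 to day 3 limma called 0 members in mock and 0 in steroid tips, and it called 0% of all probe sets in either. At an unadjusted p under 0.05 there were 3 members in mock and 1 in steroid tips, beside 4.14% and 2.45% of all.

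All 4 arrays of day 7 lay apart from all 8 earlier arrays for 17 of 50 members, 6 higher and 11 lower, where 35.1% of all probe sets did, 18.3% higher and 16.8% lower. The 6 higher were EXPA4, EXPA15, EXPB3, XTH32, GH9B13 and GH9C2. By family, day 7 lay apart for 3 expansins upward and 1 downward, for 1 XTH gene upward and 2 downward, for 2 GH9 genes each way, for 6 TBL genes downward and for 0 CSL genes. Of the lower members, EXPB5, GH9B5, TBL30, XTH20 and XTH33 had passed the filter through the earlier days alone. A lower day 7 value was thus built into their selection, and they include the 1 expansin and the 2 XTH genes counted downward. These separations are of scaled signals, and unscaled values were not compared in this way.

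Summed markers of other tissues differed between the earlier days and day 7. The summed scaled signal of leaf and green tissue markers, of which 2 of 12 were named (RCA and LHCB4.1), was 191 to 385 on days 1 and 3 and 853 to 948 on day 7. That of the 3 named meristem and young flower markers was 62.2 to 96.3 and then 30.7 to 48.9, and that of 4 of 10 carpel, style and ovule markers 833 to 1121 and then 468 to 629. Secondary wall markers, 2 of 15 named, gave 35.1 to 73.9 and then 26.7 to 33.8, and anther and pollen markers, 2 of 12 named, 84.5 to 138 and then 43.2 to 75.0. Of 5 root markers none was named. IRX15 and the tapetum regulator AMS exceeded the 40th percentile on 0 arrays, so the secondary wall and anther sums rest mainly on GUT2 and EMS1. From day 1 to day 7 limma called RCA and LHCB4.1 higher and PUCHI and ALC lower in both treatments. CLV3 and SPT were called lower in mock tips alone, and GUT2, EMS1 and INO in neither treatment. All of these are scaled signals, so a fall is relative to the other transcripts on the array. The part of these shifts in the wall gene changes was not tested. In whole tips, fewer cells of a type and less RNA per cell cannot be told apart.

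Other wall genes, taken from name patterns for pectin, xyloglucan, xylan, sugar nucleotide, cellulose and lignin steps, numbered 9 named and 6 tested. For steroid limma called 0 of these 6 on each of the 3 days, beside 0%, 0.0182% and 1.76% of all probe sets. At an unadjusted p under 0.05 there were 0, beside 4.23%, 3.03% and 13.8% of all on days 1, 3 and 7. From day 1 to day 7, 3 of 6 were called in mock and 3 of 6 in steroid tips, where 30.9% and 30.4% of all probe sets were. COB, the COBRA gene of oriented cell expansion, rose from 62.4 and 113 to 156 and 158 (log2 0.87, adjusted p = 0.0184), and FRA3, an inositol phosphatase gene that the patterns took in, from 62.1 and 35.7 to 112 and 140 (139.8; log2 1.33, adjusted p = 0.00342). The beta-galactosidase gene BGAL16 fell from 53.3 and 38.0 to 16.6 and 13.9 (log2 -1.34, adjusted p = 0.00458), but stood at log2 0.66 in unscaled values. The same 3 were called in steroid tips, at log2 0.77 for COB, 1.57 for FRA3 and -1.19 for BGAL16, the last at 0.50 unscaled. The steroid call of COB was lost when arrays were quantile-normalized or centred on the tested probe sets (adjusted p = 0.0728 and 0.0530).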

How the data were processed

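Signal intensities per probe set on 12 ATH1 arrays were deposited by the authors on a linear scale and made with MAS5, per the submitters' processing notes; its version and target are not given in the sources used here. Arrays were scaled to a common median, 4.35, the median of the arrays' 20th percentiles, was added as an offset and log2 taken, which understates folds of weak signals. A filter kept 16511 probe sets above their array's 40th percentile on at least 2 arrays. limma 3.58.1 in R 4.3.3 (lmFit, eBayes with trend) fitted 6 group means with array weights per day, and p-values were Benjamini-Hochberg adjusted over all tested probe sets, two-sided, with 0.05 as threshold. Intervals are 95% and their width is limited by 2 arrays per group. An exact permutation test of 2 against 2 arrays cannot go below p = 0.333. The script was tested on simulated data.

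Of 22746 probe sets, 13513 had 1 symbol, 503 several and 8730 none in the platform annotation. Members, lists, weights and tests were chosen with earlier results of these data known. Genes named by rule were those called for steroid, then in each family the 2 with the largest mean steroid difference, the 1 with the highest median signal, and up to 3 higher and 3 lower called members with the largest change from day 1 to day 7 in mock tips; TBL18, TBL36, EXLA2, EXPA20, COB, FRA3, BGAL16 and others named were chosen after their values were seen. Alternatives were scaling, offset, filter, weights, trend, replicate and scan date blocks, the days in the fit and leaving out each array. Promoter and protein sequences were not used here.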

Additional observations from a re-analysis of the deposited data

How the results depend on the processing

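Steroid calls among members on day 1, on day 3 and over the 3 days were 0 under every alternative run, and on day 7 the count was 2 with quantile normalization and with centring on the tested probe sets, 0 with unscaled values and 0 with equal array weights, and 1 to 1 when each array was left out. From day 1 to day 7 in mock tips the count of 18 members became 41 with unscaled values and 7 to 18 without 1 array, that of expansins 10 and 3 to 6, and that of lower TBL genes 0 and 2 to 5, or 3 with equal weights and 3 with the arrays of the compared days only. In steroid tips the count of 11 became 38 and 6 to 12, that of expansins 10 and 3 to 4, and that of lower TBL genes 0 and 1 to 3, or 4 with the replicate block within each day. From day 3 to day 7 the mock count of 16 became 28 and 7 to 20, and the steroid count of 15 became 22 and 11 to 18. Unscaled values reversed falls, to log2 1.55 for GH9B7, 1.50 for TBL18, 0.13 for TBL30, 0.88 for TBL36, 0.32 for TBL38, 0.70 for TBL39 and 0.0923 for XTH20 in mock tips from day 1. They gave 1.68 for GH9B7, 1.11 for TBL18, 0.73 for TBL36, 0.97 for TBL38 and 0.93 for TBL39 in steroid tips from day 1. From day 3 they gave 1.28 for GH9B7, 0.93 for TBL18, 0.42 for TBL36, 0.0388 for TBL38 and 0.35 for TBL39 in mock, and 1.33 for GH9B7, 0.72 for TBL18 and 0.71 for TBL39 in steroid tips. Unscaled values carry the brighter day 7 arrays. Over all probe sets the 290 steroid calls of day 7 became 186 without a filter, 93 unscaled, 9 with equal weights, 124 without a variance trend, 511 with the replicate block within each day and 73 to 315 without 1 array. Without scaling, calls over all probe sets from day 1 rose from 5095 to 14858 in mock and from 5019 to 14039 in steroid tips, and from day 3 from 5714 to 12150 and from 5403 to 10527, whereas without 1 array they ran from 2713 to 5051, 2132 to 5280, 1834 to 6627 and 3937 to 5360. The 13 calls for the mean of 3 days ran from 8 to 30, the 3 on day 3 from 0 to 5, and the 0 on day 1 up to 41 without 1 array. Correlations by replicate number were low (r 0.124, 0.0996 and 0.0883 on days 1, 3 and 7), and a pairing of samples was neither shown nor excluded. With the replicate block within each day the member counts from day 1 to day 7 were 20 in mock and 14 in steroid tips, with TBL26 at adjusted p = 0.000830. A block for scan date could be fitted for days 1 and 3 alone.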

Other observations

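Some probe sets of these families carried another symbol or several, and so stood outside the member rule. EXGT-A3, the older name of XTH27, read 9.55 and 13.2 in mock tips on day 1 and 26.7 and 45.2 on day 7 (log2 1.33, limma adjusted p = 0.0372), and was not called in steroid tips over the same days (log2 0.73, adjusted p = 0.238). AT2G31110, whose synonym is TBL40, had 2 probe sets, of which 1 was called higher in mock tips on day 7 than on day 1 (log2 2.14, adjusted p = 0.00822) and the other was not (log2 0.84, adjusted p = 0.105). None of the tested ones was called for steroid on day 7, and their lowest adjusted p there was 0.571.

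Members that neighbour each other in the annotation formed 7 adjacent pairs, among them EXLA3 with EXLA1 and XTH18 with XTH19. Between day 3 and day 1, 1 of 50 members had all 4 arrays of day 3 apart from all 4 of day 1, where 2.4% of all probe sets did. This was CSLC04, chosen after its values were seen, which read 28.0, 9.66, 24.0 and 24.9 on day 1 and 4.85, 9.14, 8.78 and 2.59 on day 3. On day 7 CSLC04 read 26.4 and 21.4 in mock and 21.7 and 19.9 in steroid tips, higher than on day 3 in both (log2 1.34 and 1.40, both called), and it was not called between day 7 and day 1. It was under the 40th percentile on every day 3 array and had passed the filter through days 1 and 7 alone. A lower day 3 value was thus built into its selection.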
